A study of Mus musculus with 12 samples.

Results

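Regulatory T cells (Tregs) are CD4 T cells that hold other immune cells in check, and the level of their own genes in the lymph nodes of autoimmune-prone NOD mice is described here without any contrast between genotypes. The 6 arrays titled as Tregs from a NOD mouse were taken, out of 12 arrays in the series, and the others, from NOD.Drak2-/- mice, were not used. Each array held RNA from a single female mouse aged 4 to 8 weeks. The labels give their genotype as NOD and name no further allele or treatment. Cells were labelled CD4+ CD8- CD25+ CD45RBlo and were sorted from lymph nodes. The antibodies named for the sort bind CD4, CD8 and CD45RB, and none to CD25 is named there.

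NOD mice develop diabetes when T cells destroy the insulin-producing cells of the pancreas, and Tregs are among the cells that delay it. A Treg depends on interleukin 2 made by other T cells, keeps the inhibitory receptor CTLA-4 ready, and carries co-stimulatory receptors of the tumour necrosis factor receptor family. Naive-like, resting Tregs circulate through lymph nodes with the homing receptor CCR7, whereas effector Tregs have met antigen, divide more and make suppressive mediators. Foxp3, the factor that defines the lineage, was not analysed here.

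Values are log2 array signals, 1 row of probes per gene, for 19505 genes. Background was read from 23 antigenomic rows, whose probes match no mouse sequence, and was set for each array at its own brightest such row. That row was the same in all 6 arrays (22 G or C bases per probe) and ran from 5.51 to 6.06 (mean 5.86 ± 0.20, SD, n = 6). A gene is called above or below background where its difference from that row passed an adjusted p of 0.05 in limma. Rows differ in their probes, so a rank (1 is the brightest gene) orders array signals and not amounts of RNA, and "below background" is a bound on the signal, not absence of the transcript. Array medians over genes lay between 5.22 and 5.34, and array pairs correlated at r = 0.978 to 0.991 across genes, which are not independent replicates.

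By this test 7466 genes (38.3%) lay above background, 10580 (54.2%) below it and 1459 on neither side. All 6 arrays placed 6982 genes (35.8%) above their own row. Replicates 1 to 6 each had 9016, 7777, 8302, 8146, 8167 and 7773 genes above it, and replicate 1, with the most, also had the lowest background row. A mean above 10 was reached by 498 genes (2.55%). The brightest row is a strict limit: against the median antigenomic row, which averaged 2.79, the count above background was 17316. With 1 mouse on each array, mouse and array cannot be told apart. The p-values set a gene's mean difference from the background row against the spread of that difference between these 6 samples. All genes of an array share the same background row, so an error in it enters every difference.

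**Figure D1:**
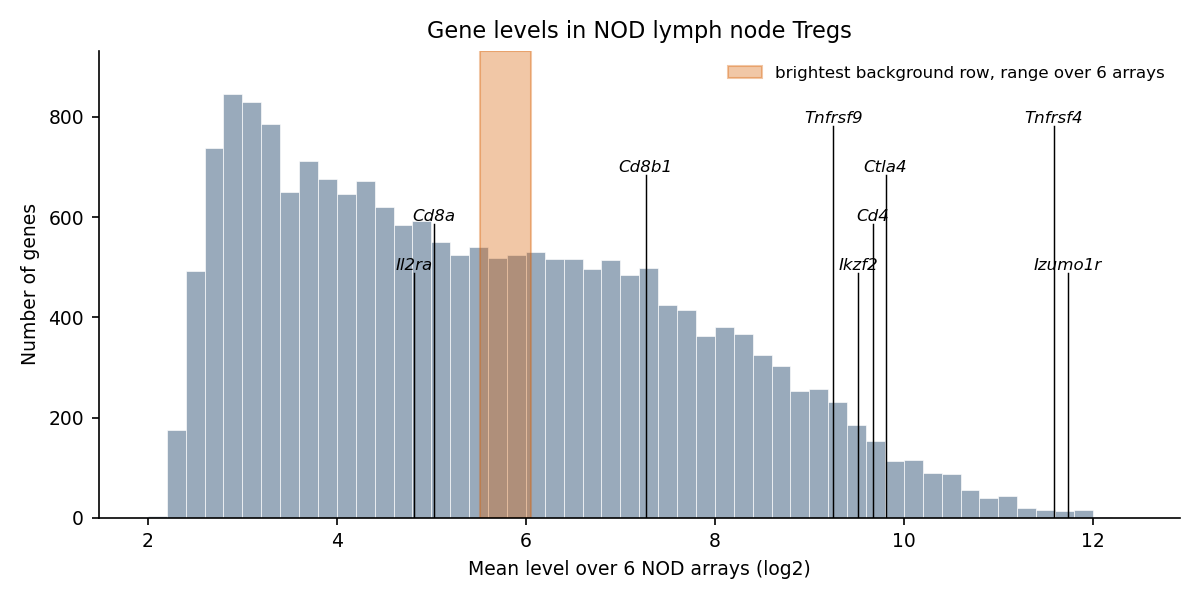
Number of genes (vertical axis) by mean log2 level over the 6 NOD arrays (horizontal axis). The shaded band is the range of the arrays' brightest background row, 5.51 to 6.06, and lines mark named genes. Izumo1r (11.73) and Tnfrsf4 (11.59) stood in the far right tail, while Il2ra (4.82) and Cd8a (5.02) lay left of the band.

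Marker genes of the labelled cell type were read first. They were chosen with earlier results of these data known, and these arrays hold no other cell type for comparison. Their levels therefore describe the cells and do not test the label. All 5 marker genes of CD4 Tregs were above background in 6 of 6 arrays. Izumo1r, which encodes folate receptor 4, ran from 11.64 to 11.84 with a median of 11.74 and held rank 24 of all genes. Ctla4, the inhibitory receptor gene, ran from 9.61 to 10.03 (mean 9.81 ± 0.19, rank 607). Cd4, the co-receptor gene used for the sort, ran from 9.32 to 10.04 (9.67 ± 0.24, rank 704). Ikzf2, which encodes the transcription factor Helios, ran from 9.24 to 9.81 (9.52 ± 0.20, rank 853), and Tnfrsf9, the gene for 4-1BB, from 8.86 to 9.64 (9.26 ± 0.30, rank 1102). The lowest of these 30 values was thus over 2.5 log2 units above the brightest background value of any array.

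The sort antigens gave a mixed picture. Ptprc, whose product carries the CD45RB epitope, averaged 11.55 ± 0.14 (rank 34), but this row does not resolve splice forms. Il2ra, the gene of CD25, lay below background in 6 of 6 arrays, with values from 4.19 to 5.28 (mean 4.82 ± 0.39, 1.04 below the own background row, adjusted p = 7.16e-07). The gene of the gate antigen therefore gave no signal above the brightest row on this array, and against the median background row the same values lay 2.03 above. Cd8a averaged 5.02 ± 0.36 and lay 0.83 below background (adjusted p = 2.92e-05), again 2.23 above the median row. Cd8b1, the second chain of CD8, averaged 7.27 ± 0.19 and was above background in 6 of 6 arrays by 1.41 (adjusted p = 8.27e-09). The 2 CD8 chains therefore fell on opposite sides of background. No gene of the Y chromosome (0 of 32 measured) exceeded background in any array. Eif2s3y, Kdm5d and Uty averaged 2.66, 2.65 and 2.52, near the median background row, and the labels give the mice as female.

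Of the core Treg genes 22 of 23 measured (95.7%) were above background, with a median level of 8.51. Of all genes 38.3% were, with a median of 5.28. Receptors were among the brightest of them. Tnfrsf4, the gene of OX40, gave 11.69, 11.55, 11.57, 11.61, 11.63 and 11.49 in replicates 1 to 6 (rank 33). Tnfrsf18, the gene of GITR, averaged 10.57 ± 0.11, and Il2rb, the signalling chain of the interleukin 2 receptor, 10.92 ± 0.12 (rank 120). Gpr83, a G protein-coupled receptor gene known from Tregs, averaged 10.44 ± 0.25. For these 4 receptor genes every array stood at least 4 log2 units above its background.

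Regulators of signalling were also above background. Rgs1, which dampens G protein signals, averaged 11.12 ± 0.10 (rank 84), and its relative Rgs16 7.50 ± 0.13. The adaptor gene Sh2d2a averaged 9.32 ± 0.29, the actin-capping gene Capg 9.03 ± 0.17, the Rac exchange factor gene Swap70 8.37 ± 0.21 and the zinc finger gene Plagl1 8.39 ± 0.38. Ikzf4, the gene of Eos and a relative of Helios, averaged 7.58 ± 0.15. Genes of suppressive surface proteins lay above background too. Lrrc32, whose product GARP tethers latent TGF-beta, averaged 8.28 ± 0.36. Nt5e (CD73) averaged 8.15 ± 0.17 and Entpd1 (CD39) 7.89 ± 0.35, the pair of enzymes that turn extracellular ATP into adenosine. Itgae, the integrin chain CD103, averaged 7.62 ± 0.35. Cd83 was closest to background among those above it (6.29 ± 0.14, 0.43 above, adjusted p = 0.00198), and Il2ra was the member below.

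**Figure D2:**
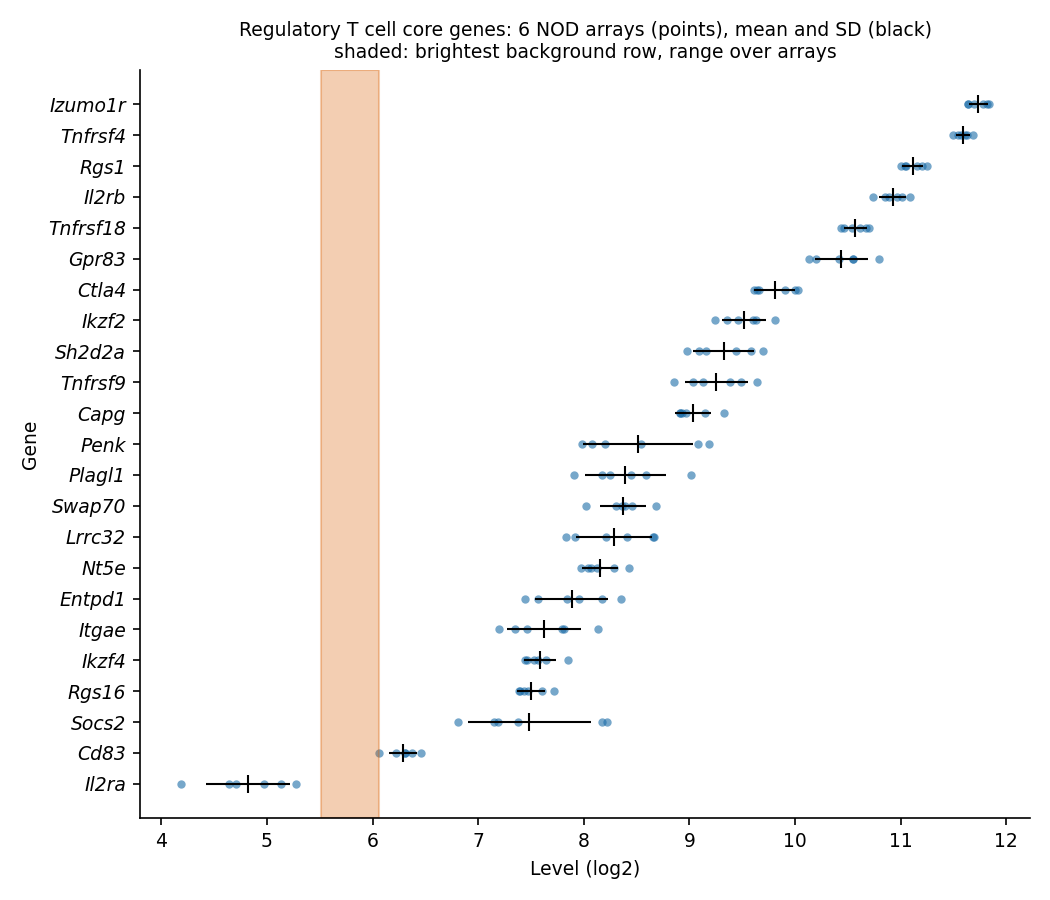
Log2 level (horizontal axis) of the 23 measured core Treg genes in each of 6 NOD arrays (points), with mean and SD in black. The shaded band is the range of the brightest background row. All genes but Il2ra lay at or right of the band, and Penk and Socs2 had the widest spread.

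Penk and Socs2 were the core genes that varied most between mice. Penk, which encodes the opioid precursor proenkephalin, gave 7.98, 8.20, 8.07, 9.19, 8.54 and 9.09 in replicates 1 to 6 (SD 0.52). Socs2, a feedback gene of cytokine signalling, gave 6.81, 7.15, 7.19, 8.22, 7.38 and 8.17 (SD 0.58). In both, replicates 4 and 6 were the highest. Izumo1r (SD 0.09) and Tnfrsf4 (SD 0.07), by contrast, ranged over less than 0.25 log2 units. Of 22 core genes above background 2 had an SD over 0.5, beside 5.30% of all genes above background. Without replicate 4, or without replicate 6, that count was 1.

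Genes of effector Tregs were above background in 18 of 22 cases (81.8%, median 7.74), beside 38.3% of all genes. Lgals1, the gene of galectin-1, averaged 10.63 ± 0.12, the co-stimulatory receptor gene Icos 10.10 ± 0.14 and the calcium-binding protein gene S100a4 9.59 ± 0.16. Prdm1, which encodes Blimp-1, a factor of effector Tregs that drives interleukin 10, varied most: 6.34, 6.18, 5.87, 7.44, 6.39 and 7.39, again highest in replicates 4 and 6. The 4 members not above background were Il10 (6.11 ± 0.46, 0.25 above its row, adjusted p = 0.0925), Lag3 (5.39 ± 0.46), Ebi3 (4.85 ± 0.39) and Havcr2 (3.59 ± 0.25). Il10 and Ebi3 encode a suppressive cytokine and a subunit of another, Lag3 and Havcr2 inhibitory receptors.

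Genes of resting T cells were above background in 14 of 15 cases (93.3%, median 9.05), beside 38.3% of all genes. Slamf6, a receptor gene of quiescent T cells, averaged 10.47 ± 0.13, the factor gene Foxp1 10.43 ± 0.22 and the survival gene Bcl2 10.33 ± 0.15. Il7r, the interleukin 7 receptor chain that resting T cells need, ran from 8.11 to 9.27 with a median of 8.58. It was highest in replicate 3 and lowest in replicate 4. Ly6c1 (4.51 ± 0.51) was the member below background. Effector and resting genes were thus detected in the same 6 samples, in which separate cells cannot be resolved. In such bulk RNA, fewer cells of a type and less RNA per cell cannot be told apart.

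T cell receptor components gave some of the strongest signals. Of 26 measured, 23 (88.5%, beside 38.3% of all genes) were above background, with a median of 9.65. After Ptprc came Cd3d, a chain of the CD3 complex (11.35 ± 0.11, rank 50), and Cd5, a damper of receptor signals (11.13 ± 0.14). The largest spread was that of Nfatc2, a calcium-driven transcription factor gene (7.11 ± 0.44, from 6.57 to 7.60). The calcium sensor gene Stim1 was below background (3.88 ± 0.35), and the channel gene Orai1 (6.10 ± 0.11) and the adaptor gene Skap1 (5.69 ± 0.20) on neither side.

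Genes that a T cell receptor signal switches on were also above background, 24 of 26 (92.3%), with a median of 8.51. Among all genes the share was 38.3%. Dusp1, a phosphatase gene that turns off MAP kinases, was rank 12 of all genes and ran from 11.79 to 12.08. Cd69, which keeps T cells in a tissue, ran from 10.88 to 11.12, and Tnfaip3, which encodes the NF-kappa-B brake A20, averaged 10.70 ± 0.15. Fosb varied most, giving 8.56, 8.03, 7.89, 9.16, 8.22 and 8.86. Fosl2 (5.41 ± 0.10) and Ier3 (3.77 ± 0.28) were below background. Dusp1 and the Fos and Jun genes are also known to be induced when tissue is dissociated, and the part of cell isolation in these levels was not tested. Beside them, heat shock genes were above background in 10 of 13 cases (76.9%, median 7.51). Hsp90aa1, Hspa5 and Hspa4 averaged 10.65, 9.60 and 9.38, Hspa1a, the stress-induced form, 6.11 ± 0.15, and Hspa1b (5.17) and Hspb1 (4.86) lay below background.

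Cytokine receptors were above background in 22 of 27 cases (median 8.41). Cytokines were above it in 6 of 20 (30.0%, median 4.82), near the 38.3% and the median of 5.28 of all genes. After Il2rb the brightest receptor genes were Il6ra (10.59 ± 0.09) and Il6st (10.58 ± 0.10), the pair that binds interleukin 6. Il1r2, a decoy receptor gene for interleukin 1 known from activated Tregs, averaged 7.74 ± 0.41 and had the largest spread. Il1r1, the gene of the signalling receptor for interleukin 1, lay below background (5.05 ± 0.37). Among cytokine genes, Ltb (lymphotoxin beta, 10.92 ± 0.17), Tgfb1 (the suppressive cytokine TGF-beta 1, 10.25 ± 0.18) and Il16 (8.21 ± 0.15) were clear of background, followed by Lta (7.16 ± 0.32) and Tnf (6.71 ± 0.68) and, just above it, Il13 (6.22 ± 0.13). Tnf gave 6.44, 6.36, 5.93, 7.18, 6.53 and 7.84, with replicate 6 the highest and replicate 4 next. Il2, the growth factor that Tregs do not make themselves, averaged 3.28 ± 0.09, Il4 3.09 ± 0.12, Il12a 2.89 ± 0.28 and Il3 2.71 ± 0.25, all far below the brightest row.

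Of helper T cell factors 10 of 13 (76.9%) were above background, beside 38.3% of all genes. Stat3 (10.24 ± 0.06) and Stat6 (9.19 ± 0.20), which relay cytokine signals, and Rora (9.15 ± 0.22) were the brightest, Rora at 7.15 where its rows were averaged. Runx3 varied most (8.38 ± 0.46). Tbx21, the gene of the Th1 factor T-bet, lay below background (5.00 ± 0.35), while Eomes (5.84 ± 0.22) and Bcl6, the follicular helper factor gene (6.04 ± 0.30), fell on neither side.

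Homing genes split by family. Adhesion genes were above background in 15 of 15 cases (median 9.05), led by Selplg, the selectin ligand PSGL-1 (11.41 ± 0.21), and the integrin genes Itga6 (10.47 ± 0.14) and Itgal (10.39 ± 0.09). Chemokine receptors were above it in 8 of 15 (53.3%), beside 38.3% of all genes. The brightest were Ccr6 (10.05 ± 0.19), Cxcr4 (9.52 ± 0.37) and the lymph node homing receptor gene Ccr7 (9.30 ± 0.12). Ccr2, which guides cells to inflamed tissue, varied most of those above background, with values of 8.10, 7.37, 7.11, 7.92, 8.22 and 7.48. Xcr1 (3.84), Ccr3 (3.56) and Ccr1 (3.31), receptors of dendritic and other myeloid cells, were among the 4 below.

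Genes of basic cell functions headed the ranking. Of the 20 brightest genes 14 encode ribosomal proteins, as do 34 of the 100 brightest. Rpsa was rank 1 (12.13 ± 0.04) and Rplp1 rank 2 (12.07 ± 0.05). Cox7c, a subunit of cytochrome oxidase, was rank 3 and ran from 11.91 to 12.09. The others among the 20 were Actb (11.92 ± 0.14), B2m, the light chain of MHC class I (11.88 ± 0.09), Dusp1, Pabpc1 and Eef1a1 (11.82 ± 0.10). Izumo1r, Tnfrsf4 and Ptprc followed just below these, at ranks 24, 33 and 34. All 55 ribosomal protein genes were above background (median 11.25), beside 38.3% of all genes. So were 14 of 14 MHC class I and antigen-processing genes (median 9.25) and 31 of 32 genes of oxidative phosphorylation (median 9.97). In the MHC class I list the spread was largest for Tapbp, the gene of tapasin, which gave 8.11, 8.81, 8.31, 8.80, 8.59 and 9.59.

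Glycolysis genes were above background in 13 of 20 cases (65%, median 6.74), beside 38.3% of all genes. Gapdh averaged 10.31 ± 0.10, the glucose transporter gene Slc2a1 9.71 ± 0.09 and the phosphofructokinase gene Pfkp 8.99 ± 0.29. The lactate transporter gene Slc16a3 (5.09), Hk2 (5.12) and Ldhb (4.78) were below background. Of the 8 GIMAP genes, GTPases of lymphocyte survival, 7 were above it, led by Gimap4 (9.75 ± 0.23), with Gimap7 on neither side. Survival genes were above it in 15 of 21 cases (71.4%). Bcl2a1b (11.19 ± 0.07) and Bcl2a1d (10.56 ± 0.07), near-identical copies and so uncertain as separate genes, were the brightest, and Casp8, which starts or restrains cell death, followed (10.36 ± 0.12). The pro-death genes Bmf (4.97) and Casp9 (4.75) and the death ligand gene Fasl (4.98) were below.

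**Figure D3:**
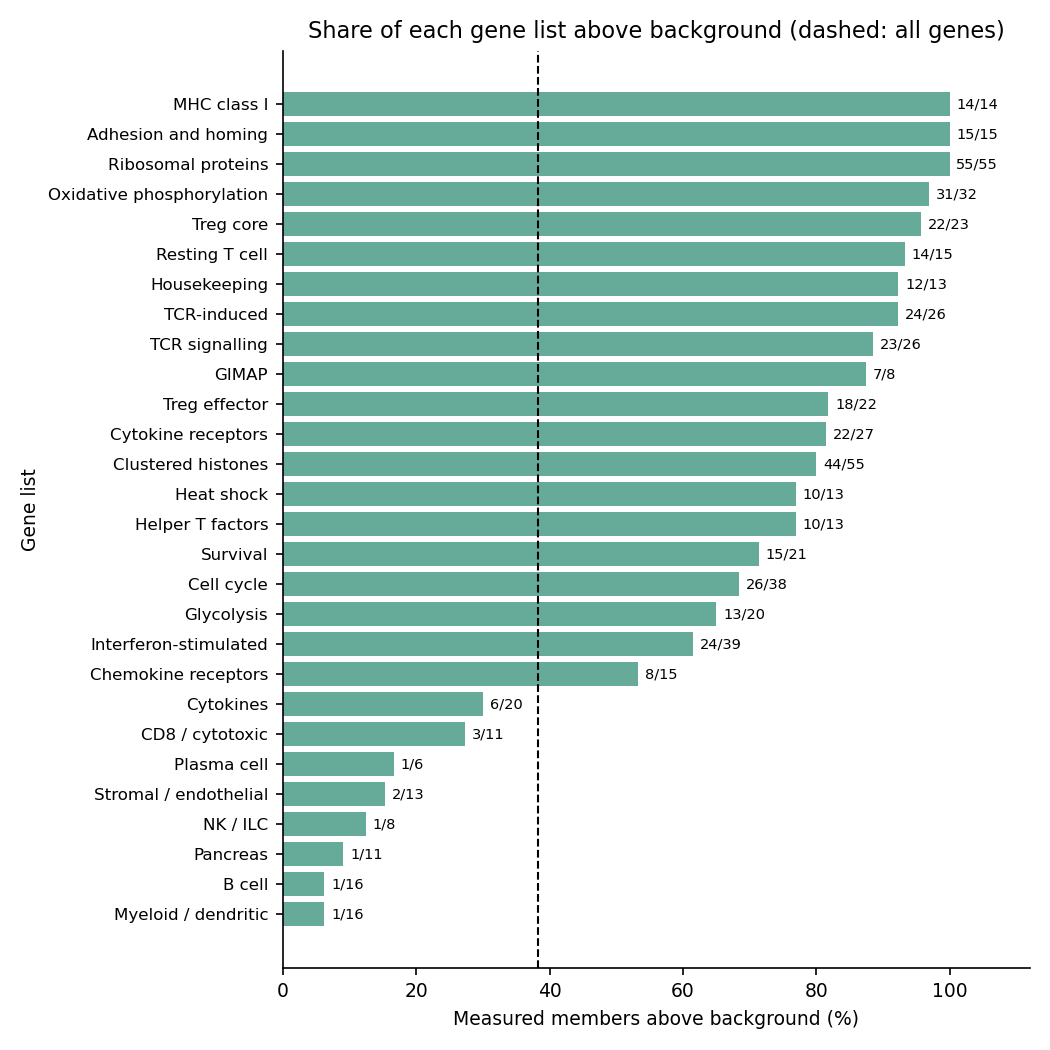
Share of measured members above background (horizontal axis, percent) for 28 gene lists, with the counts at the bar ends. The dashed line is the 38.3% of all genes. T cell, Treg and household lists stood right of it, cytokines and the lists of other cell types left of it.

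Markers of most other cell types were below background, where 54.2% of all genes also lay. Of 16 B cell markers 1 was above it, the MHC class II gene H2-Aa (6.83 ± 0.25, from 6.39 to 7.06). Of the rest 12 lay below background and 3 on neither side, among them Cd79b (5.89) and Ebf1 (5.74). The dimmest, Ms4a1, Cd22 and Fcrla, averaged 4.08, 4.20 and 3.55. Of 16 myeloid and dendritic cell markers 1 was above, Cst3 (10.46 ± 0.11), the gene of the widely made protease inhibitor cystatin C, whereas Lyz2 averaged 5.53 and S100a8, Clec9a and Flt3 2.78, 2.86 and 3.19. Of 8 NK and innate lymphoid markers 1 was above, Id2 (7.38 ± 0.37), a factor that T cells also use; Ncr1 and Klrk1 averaged 3.32 and 2.71. Of 6 plasma cell markers 1 was above, Prdm1, which is also in the effector Treg list, while Jchain and Mzb1 averaged 2.85 and 2.67.

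Of 11 CD8 and cytotoxic markers 3 (27.3%) were above background and 6 below it, near the 38.3% and 54.2% of all genes. The 3 were Nkg7 (8.20 ± 0.24), Cd8b1 and Gzmb. Gzmb, the gene of granzyme B, which effector Tregs can make, gave 7.16, 6.39, 6.48, 7.55, 7.43 and 7.79. Gzma (3.31), Gzmk (3.58) and Ccl5 (4.27) were below. Of 13 stromal and endothelial markers 2 were above, Pecam1, the gene of CD31 (9.12 ± 0.11), and Col1a1 (6.66 ± 0.19). Ccl21a (6.08 ± 0.30) fell on neither side, while Kdr, Ccl19 and Emcn averaged 2.86, 3.22 and 3.33. Of 11 pancreas markers 1 was above, Sst (6.26 ± 0.18, 0.40 above its row), and without replicate 6 there were 2. In the main fit 7 lay below background and 3 on neither side, among them Cpa1 (6.07) and Ins2 (5.74). The median of the pancreas list, 5.29, was near the 5.28 of all genes. Ctrb1 and Amy2a5 averaged 3.68 and 3.63. Of 3 thymocyte markers Ptcra alone was above (6.17 ± 0.26, adjusted p = 0.0173), a call that ended without replicate 2, and Rag2 and Dntt averaged 3.32 and 3.17. Of 3 red cell and platelet markers 0 were above background, and Alas2, Pf4 and Ppbp averaged 5.85, 5.63 and 3.65. Alas2 and Pf4 fell on neither side.

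Spread between the 6 mice was small for most genes. Among genes above background the median SD was 0.23 log2 units, with quartiles at 0.17 and 0.32, and 396 of 7466 (5.30%) exceeded 0.5. Over all genes, whether or not above background, it depended on the level: the median SD was 0.18 for means below 4, 0.25 from 4 to 6, 0.27 from 6 to 8, 0.21 from 8 to 10 and 0.12 above 10, where 0 of 498 genes exceeded 0.5. The smallest SDs belonged to Pfdn5, a subunit of the chaperone prefoldin (10.24 ± 0.01), Rpl8 (11.79 ± 0.02), Rpl31 (11.93 ± 0.02), Rps24 (11.14 ± 0.03) and Tcf25.

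**Figure D4:**
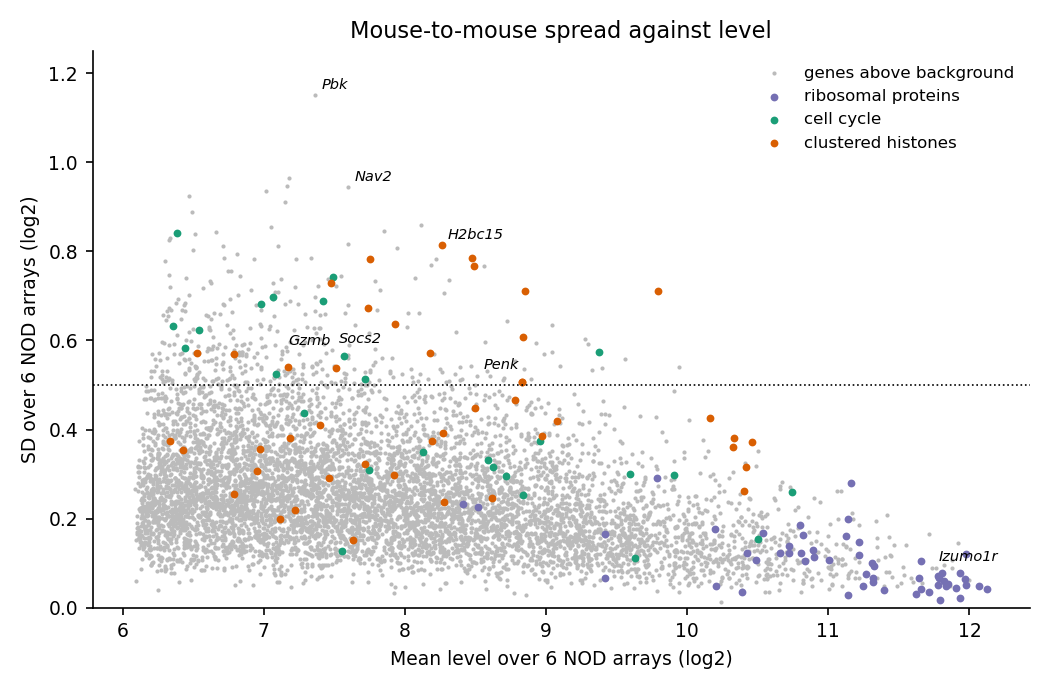
SD over 6 NOD arrays (vertical axis, log2) against the mean level (horizontal axis, log2) for the 7466 genes above background, with ribosomal, cell cycle and clustered histone genes coloured. The dotted line marks an SD of 0.5. Above it lay 17 of 44 clustered histone genes, 12 of 26 cell cycle genes and 0 of 55 ribosomal protein genes.

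Pbk, a mitotic kinase gene, had the largest SD of all genes above background. It gave 8.00, 5.18, 7.24, 7.75, 7.55 and 8.48 in replicates 1 to 6 (SD 1.15), so replicate 2 stood far below the others. Trafd1, Fbxo5, Ncapg, Kif23, Car5b, Pcgf3, Lcorl, Rnf32, Pms2, Gtpbp10 and Csgalnact2 were also lowest in replicate 2. Fbxo5, a brake on the anaphase-promoting complex, was at 5.97 there and between 7.74 and 8.20 elsewhere. Ncapg, a condensin subunit gene, was at 5.49 there and between 6.97 and 8.09 elsewhere. Pdk2, a kinase gene that restrains pyruvate oxidation, and Mis12 and Fbxw9 were instead lowest in replicate 1 (5.42, 5.28 and 4.87). The neuron navigator gene Nav2 was at 8.53 and 8.97 in replicates 4 and 6 and at 6.54 to 7.33 in the rest. Leng8 (9.38 and 8.99) and Tspyl2 (8.67 and 8.92) had the same 2 arrays on top, and Susd4 ran from 5.51 to 7.46. Over the 396 genes with an SD above 0.5, replicate 2 was lowest in 162, beside 24.2% of all genes above background, and replicate 6 highest in 122, a share near the 25.2% of all. Replicate 2 also had the lowest mean correlation with the other arrays (0.980).

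Cell cycle genes were above background in 26 of 38 cases (68.4%, beside 38.3% of all genes) and varied more than most. Of those 26, 12 (46.2%) had an SD over 0.5, and their median SD was 0.41. Ccnd3, the gene of cyclin D3, averaged 10.75 ± 0.26, the replication clamp gene Pcna 10.50 ± 0.15 and the chromatin protein gene Hmgb2 9.91 ± 0.30, the 3 brightest members. Mki67, the proliferation marker Ki-67, gave 9.97, 8.43, 9.05, 9.59, 9.35 and 9.87. Aurkb, a mitotic kinase gene, gave 8.13, 6.82, 6.59, 8.01, 7.09 and 8.30. Top2a, which untangles replicated DNA, gave 8.05, 6.17, 7.29, 7.46, 7.49 and 8.05. Kif23, a motor of cell division, had the largest SD of the list (6.38 ± 0.84). Mki67, Top2a, Aurkb and further examples here were chosen after their values were seen.

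Replicate 2 was the lowest array for 20 of the 26, beside 24.2% of all genes above background. Replicate 6 was the highest for 16, beside 25.2%, and replicate 1 for 9, beside 14.1%. The mean of the 26 was 8.41, 7.52, 7.91, 8.30, 8.03 and 8.58 in replicates 1 to 6, a range of 1.06 log2 units, and of 0.67 without replicate 2. The mean of all genes above background ran only from 7.80 to 7.93, lowest in replicate 2 as well. Without replicate 2 the count with an SD over 0.5 was 5 of 26 (19.2%), beside 4.69% of all genes above background. The dimmest members were Bub1b (4.55 ± 1.28), Cenpf (4.91 ± 0.34) and Bub1 (5.14 ± 0.76), all below background. The list means of pancreas, red cell and platelet, stromal, thymocyte, B cell and myeloid markers were all highest in replicate 2, although only Sst, Pecam1, Col1a1, Ptcra, H2-Aa and Cst3 of them were above background. The mean of all 19505 genes was also highest there (5.59, against 5.54 to 5.56). The pancreas list averaged 5.39 there and 4.98 to 5.13 elsewhere. The part of these signals in the low cell cycle values of replicate 2 was not tested.

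The clustered histone genes, which are transcribed mainly while DNA is replicated and package the new DNA, also varied between mice. This list was added after the values were seen. Of 55 measured, 44 (80%, beside 38.3% of all genes) were above background, with a median over all 55 of 7.72. Of the 44, 17 (38.6%) had an SD over 0.5. Their sequences are near-identical within a family, so single genes are uncertain, and H3c14 and H3c15 had identical values. By family, 10 of 11 H2B genes above background exceeded 0.5, 5 of 8 H3 genes, 1 of 11 H2A genes, 1 of 10 H4 genes and 0 of 4 H1 genes. The median SDs of these H2A and H4 genes, 0.37 and 0.34, were still over the 0.23 of all genes above background. Replicate 4 or 6 was the highest array in 11 of 11 H2A and 10 of 10 H4 genes, beside 37.4% of all genes above background.

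Replicate 2 was the lowest array for 29 of the 44, as it was for most cell cycle genes, and replicates 4 and 6 were the highest. Either was the highest array in 43 of 44 genes, beside 37.4% of all genes above background, and together they were the top pair in 37 of 44 (84.1%). Among all genes above background that pair was on top in 17.3%. H2bc15 gave 8.32, 7.52, 7.41, 9.15, 7.87 and 9.30 (SD 0.81), H2bc12 8.57, 7.58, 8.00, 9.24, 8.00 and 9.53, and H2bc3 7.73, 6.28, 7.35, 8.32, 7.14 and 8.03. The brightest genes were of the H2A family, with H2ac13 from 9.94 to 10.98. The mean of the 11 H2B genes was 7.90, 7.01, 7.45, 8.52, 7.53 and 8.65, so the arrays ranged over more than 1.5 log2 units. In the cell cycle list replicate 1 stood above replicate 4, whereas for H2B genes it stood below both replicates 4 and 6, and the other arrays came in the same order in both lists. Without replicate 2, 13 of 44 histone genes and 8 of 11 H2B genes had an SD over 0.5, and without replicate 6 the count over all histones was 9. The plasma cell list had means of 4.46 and 4.43 in replicates 4 and 6 and 4.09 to 4.19 elsewhere. Prdm1, its only member above background and also an effector Treg gene, was at 7.44 and 7.39 there, while Mzb1 was lowest in replicate 6 and Sdc1 highest in replicate 1. The B cell list mean was lowest in replicate 4 (4.84, against 5.12 to 5.19). Their part in the histone values was not tested.

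**Figure D5:**
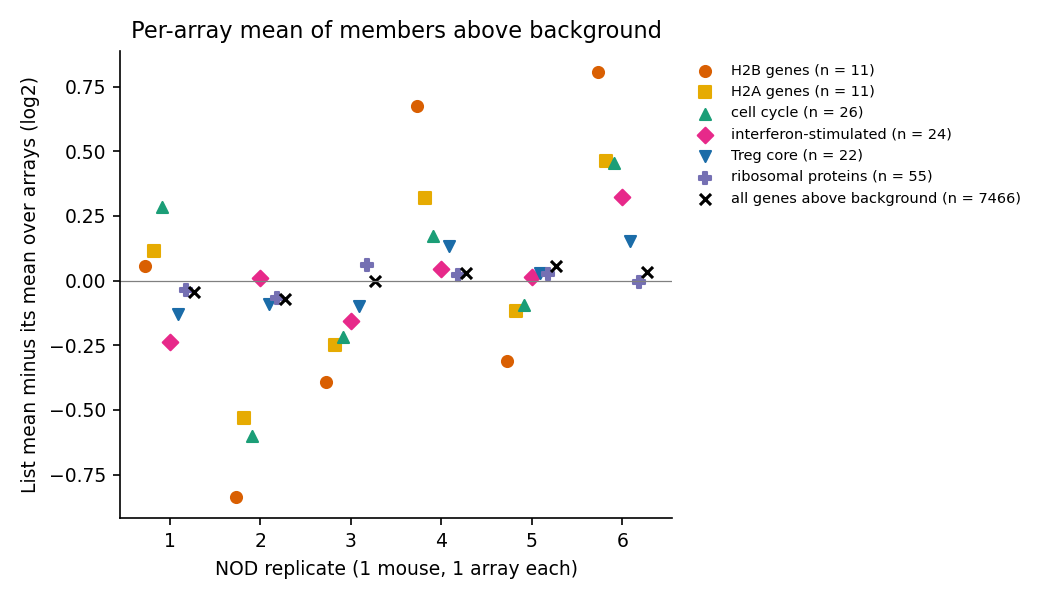
Mean log2 level of the members above background in each of 6 NOD arrays, minus the list's mean over arrays (vertical axis), by replicate (horizontal axis), for 6 lists and all genes above background. H2B genes were highest in replicates 4 and 6 and lowest in replicate 2, cell cycle genes were highest in replicates 6 and 1, and ribosomal protein genes and all genes stayed near 0.

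Because H2B genes moved together, their promoters were read for known elements. RefSeq promoters (GRCm38.p6) were at hand for 14 of 16 H2B genes, and the 250 bases before the start were searched on both strands. The octamer ATTTGCAT, the known element of H2B promoters bound by Oct-1, was present in 6 of 14, beside 1.60% of all 32851 promoters. It was also found in 6 of 13 H2A promoters and in 0 of 8 H3, 0 of 10 H4 and 0 of 5 H1 promoters. Whether H2A and H2B genes share octamers was not examined, and with both strands searched a shared octamer would count for both. CCAAT, a common element of promoters active in the cell cycle, was in 14 of 14 H2B promoters and in 26 of 32 cell cycle promoters, beside 33.8% of all. It was also in 13 of 13 H2A, 5 of 5 H1, 6 of 8 H3 and 3 of 10 H4 promoters. TATAAA was in 8 of 14 H2B promoters, in 0 of 32 cell cycle promoters and in 12.4% of all. Other histone families held TATAAA too, in 7 of 13 H2A, 5 of 10 H4, 3 of 5 H1 and 2 of 8 H3 promoters. The octamer holds no CCAAT or TATAAA. The 120 bases before the start are shown for 3 H2B genes, with these elements in capitals on either strand (ATTGG is CCAAT read on the other strand). H2bc12 (chr13:22035701-22035820, plus strand) and H2bc3 (chr13:23746614-23746733, plus strand) hold the octamer. H2bc15 (chr13:21753956-21754075, plus strand), the H2B gene with the largest SD, does not hold it in this window.
H2bc12: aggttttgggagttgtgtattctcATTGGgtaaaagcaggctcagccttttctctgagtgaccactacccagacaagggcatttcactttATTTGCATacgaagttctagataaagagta
H2bc3: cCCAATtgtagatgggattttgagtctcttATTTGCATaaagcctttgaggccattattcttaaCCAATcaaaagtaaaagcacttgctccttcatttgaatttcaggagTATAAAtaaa
H2bc15: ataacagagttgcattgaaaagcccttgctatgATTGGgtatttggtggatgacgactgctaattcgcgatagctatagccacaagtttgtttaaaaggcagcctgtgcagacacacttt

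Of the 6 H2B genes with an octamer, H2bc12, H2bc14, H2bc18 and H2bc3 had SDs of 0.77, 0.64, 0.67 and 0.73. H2bc8 and H2bc1, which also hold it, had SDs of 0.38 and 0.18 and were not above background (5.60 and 3.93). Since these last 2 genes gave no signal above background, their SDs are not set against those of the others. H2B genes outside these 6 also spread widely. H2bc15, H2bc11 and H2bc7 had SDs of 0.81, 0.78 and 0.78, and H2bc13, H2bc9 and H2bc22 of 0.61, 0.57 and 0.57. They are the rest of the 10 of 11 H2B genes above background with an SD over 0.5. A link between octamer and spread was not tested. A match is a description of the letters and not a measured binding site.

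Interferon-stimulated genes, which cells switch on in answer to interferons, were above background in 24 of 39 cases (61.5%, median 6.82). Among all genes the share was 38.3%. The brightest were the guanylate-binding protein genes Gbp3 (9.20 ± 0.31) and Gbp4 (9.11 ± 0.17) and the viral tether gene Bst2 (9.17 ± 0.22). At the other end, the dimmest members were the antiviral genes Rsad2, Oasl1 and Mx1, which averaged 3.34 ± 0.09, 3.40 ± 0.34 and 3.47 ± 0.35. Oas1a, Oas2, Oas3, Ifit2 and Isg15 were likewise below background, and this group was named after its values were seen. Of the 39, 12 lay below background and 3 on neither side.

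Of the 24 above background 4 (16.7%) had an SD over 0.5: Dhx58, Irf7, Usp18 and Irgm1. Dhx58, a sensor-like helicase gene, gave 6.57, 6.62, 5.70, 6.55, 6.34 and 7.94, so replicate 6 stood alone at the top. Irf7, the factor that amplifies interferon responses, gave 6.29, 6.24, 6.71, 7.33, 7.08 and 7.69. Irgm1, an immunity-related GTPase gene, gave 5.99, 6.68, 6.63, 7.37, 6.81 and 7.60. Usp18, which shuts the interferon receptor off, gave 5.98, 7.47, 6.84, 6.32, 7.04 and 7.29, an order of its own with replicate 2 the highest. Without replicate 6 the count was 1, and without replicate 1 it was 2. Replicate 6 was the highest array for 16 of the 24, beside 25.2% of all genes above background, and replicate 1 the lowest for 9, beside 22.8%. The mean of the 24 was 7.49, 7.74, 7.57, 7.77, 7.74 and 8.05 in replicates 1 to 6. Replicate 1, lowest here, was second highest for cell cycle genes, so the order of the arrays differed between these lists.

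The interferon-stimulated response element, searched on both strands of the 250 bases before the start as GAAA, any 2 bases and GAAA, was in 16 of 37 promoters of the 29 list genes with a RefSeq promoter, beside 2.98% of all promoters. It was found in 2 of 32 cell cycle promoters and 1 of 50 clustered histone promoters. The 120 bases before the start are shown for Gbp3, the brightest gene of the list, for Irgm1, which was variable, and for Trim30a (8.68 ± 0.27), chosen after its values were seen. In these sequences capitals mark matches to the element on either strand, which overlap in Gbp3 and Irgm1. For Gbp3 (chr3:142559924-142560043, plus strand) and Trim30a (chr7:104465194-104465313, minus strand) only the start with a match is shown, and the other listed start of each had 0 matches in its window. Irgm1 lies at chr11:48871421-48871540, minus strand.
Gbp3: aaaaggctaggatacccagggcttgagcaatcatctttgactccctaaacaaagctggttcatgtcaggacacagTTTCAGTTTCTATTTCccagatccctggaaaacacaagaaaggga
Irgm1: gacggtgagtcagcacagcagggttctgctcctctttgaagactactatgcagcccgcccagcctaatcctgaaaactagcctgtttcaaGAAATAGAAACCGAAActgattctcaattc
Trim30a: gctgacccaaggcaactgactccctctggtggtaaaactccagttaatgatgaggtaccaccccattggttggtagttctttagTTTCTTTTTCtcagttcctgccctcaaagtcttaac

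The brighter Gbp3 (8.85, 9.13, 8.84, 9.53, 9.45 and 9.39) and Trim30a (8.70, 8.61, 8.27, 8.86, 8.58 and 9.07) spread less than Irgm1, each with its element in the window shown. Replicates 4 and 6 were the top pair for 8 of the 24 interferon-stimulated genes, for 8 of 26 cell cycle genes and for 7 of 22 core Treg genes, beside 17.3% of all genes above background. Among 55 ribosomal protein genes they were the top pair for 10 (18.2%), about that share. The labels give no cage, day or batch for these mice.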

How the data were processed

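RNA of sorted lymph node Tregs was extracted with a column kit, labelled as biotinylated cDNA by a whole-transcript kit and hybridised to 1 array per mouse, per the labels' protocols. The deposited values are log2 signals. The submitters' processing notes name RMA (background correction, normalization between arrays, summary per row) and the R package oligo. Neither their versions nor the annotation's build are given in the sources used here. RMA forces arrays to a common distribution, so shifts of all genes cannot be seen. Arrays give no counts, so no depth or counting interval applies, and precision is limited by the number of arrays.

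There were 29129 rows, 6923 of them controls. Among 22206 transcript cluster rows, 19572 had a single symbol in the platform annotation and 2634 were unnamed. The row with the highest mean over the 6 NOD arrays was kept per gene (19505 genes, all found in the RefSeq gene table of GRCm38.p6). Each array's brightest antigenomic row was subtracted, and the differences were tested against 0 with limma 3.58.1 in R 4.3.3 (lmFit, eBayes), with Benjamini-Hochberg adjustment over the 19505 genes. All adjusted p-values are from that fit. The SD over arrays has no test. Lists are described by counts and medians only. The limma step was tested on simulated data with known shifts.

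The genes, the 33 lists and the tests were chosen with earlier results of these data known. Named were the markers, sort and sex genes, the 20 brightest genes, the 20 largest and 5 smallest SDs above background, all core Treg genes and, per list, the brightest, the most variable and the dimmest members. Any other gene in the text was picked with its values known. Of 597 list genes 523 were measured. Alternatives were other background rows, other variance settings, averaged rows, median centring, other SD thresholds, no filter and leaving out arrays. The NOD.Drak2-/- arrays were not used.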

Additional observations from a re-analysis of the deposited data

Results flagged for a closer look

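Of 262 sets of 6 array values tested for a single array apart from the others, 18 were flagged, and chance flags about 1 in 20 sets. That share does not hold for the genes that were named for a large SD, such as Fbxo5, Trafd1, Hspa9 and Gimap5. Replicate 2 was the array apart for 9 genes. It was low for the mitotic checkpoint gene Bub1 (3.68, against 5.10 to 5.87), for Fbxo5 (5.97, against 7.74 to 8.20), for Trafd1 (4.99, against 6.74 to 7.38), for Gimap5 (6.29, against 7.01 to 7.38), for the mitochondrial chaperone gene Hspa9 (5.16, against 6.07 to 6.59) and for Rpl7a (11.66, against 11.78 to 11.85). It was high for Col1a1 (7.03, against 6.50 to 6.68), for the insulin gene Ins2 (6.23, against 5.48 to 5.76) and for the NK receptor gene Klre1 (3.17, against 2.69 to 2.84). Bub1 and Klre1 lay below background in each array, and Ins2 exceeded it in only 2 of 6.

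Replicate 6 was high for the antiviral genes Mx1 (4.11, against 3.05 to 3.44) and Oasl1 (4.07, against 3.12 to 3.37), both below background in each array, and low for Bcl2 (10.05, against 10.33 to 10.48). Replicate 3 was high for Rsad2 (3.52, against 3.28 to 3.32) and Rps14 (11.96, against 11.74 to 11.80), and replicate 5 for Rps29 (11.93, against 11.80 to 11.84). Replicate 4 was low for the lysozyme gene Lyz2 (4.86, against 5.47 to 5.79) and for the mean of the B cell markers (4.84, against 5.12 to 5.19). Rsad2 lay below background in each array, and Lyz2 exceeded it in only 2 of 6. Replicate 1 was low for the mean of the heat shock genes (7.42, against 7.57 to 7.65).

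Rows outside the gene-level analysis also carried signal. Of 2634 transcript cluster rows without a single gene symbol, 768 (29.2%) lay above the own brightest background row in 6 of 6 arrays.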

How the results depend on the processing

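The choice of background row moved the counts most. Against the median antigenomic row 17316 genes lay above and 731 below, and Il2ra and Cd8a turned to 2.03 and 2.23 above background. Leaving out 1 array in turn gave 7309 to 7544 genes above and 10423 to 10765 below. The number of genes with an SD over 0.5 was 350 to 525 when 1 array was left out and 256 among genes above background in all arrays. It was 961 with no filter on background. With an SD threshold of 0.4 it was 954, and with 0.75 it was 36. Of 96 marker differences from background, 92 kept their direction and side of the threshold, the exceptions being Il2ra and Cd8a and, against the median row, Eif2s3y and Kdm5d, whose differences (-0.13 and -0.14) missed it. Of 440 gene levels 1 moved beyond its spread, Rora with averaged rows. Of 532 list counts of high spread 79 moved by over 1.5 times, so counts in small lists depend on the threshold and on single arrays. No paired analysis was possible because only the NOD group is described and no contrast between groups is made. Genes near the brightest background row are limited by signal over background, and weak signals there cannot be told from probe noise.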
